A study of Mus musculus with 4 samples.

Results

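Interferon-stimulated genes of the mouse host were examined in cells that were carried along when human leukocytes were sorted from huNSG-SGM3 mice. The 9 genes are Isg15, Ifit1, Ifit3, Irf7, Rsad2, Ifitm3, Bst2, Oasl2 and Ifi27l2a, out of 31053 mouse genes in the combined reference, and UMIs of all 9 were found in host cells of each of the 4 libraries. Host cells were barcodes with over 50% of their UMIs on mouse (mm10) genes in which the globin genes Hbb-bs, Hbb-bt, Hba-a1 and Hba-a2 held under 20% of the mouse UMIs. This gave 2571 of 22830 barcodes, beside 18106 human barcodes and 2153 mouse barcodes rich in globin. The rule left a clear gap, in that the highest globin share inside it was 8.76% and the lowest outside it 25.7%.

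Type I interferons bind the receptor IFNAR, whose kinases JAK1 and TYK2 set off the formation of the complex ISGF3, which binds interferon-stimulated response elements and switches on a broad antiviral programme. Most leukocytes hold a low tonic level of this programme in the absence of infection, and neutrophils, monocytes and macrophages raise it readily. ISG15 is a ubiquitin-like modifier, the IFIT proteins bind foreign RNA, and IRF7 is the transcription factor that amplifies interferon production. RSAD2 (viperin) makes an antiviral nucleotide, IFITM3 restricts viral entry at membranes, BST2 (tetherin) holds budding virions at the cell surface, and OASL2 belongs to the oligoadenylate synthetase family. IFI27L2A is a small membrane protein that interferon induces strongly.

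The hosts are NOD.Cg mice with the alleles Prkdcscid and IL2rgtm1Wjl and the transgenes Tg(CMV-IL3,CSF2,KITLG)1Eav (MloySzJ). They therefore lack mouse T, B and NK cells, express human IL3, CSF2 and KITLG under the CMV promoter, and were irradiated as pups before engraftment with CD34+ cells of human cord blood. The 4 libraries, 1 per group, were naïve blood, sham blood (T9 laminectomy), SCI blood (T9 contusion) and SCI cord, at a labelled age of 15 weeks and, for the operated groups, 7 days after surgery. SCI blood and SCI cord came from 1 group of mice, and cells of different animals were pooled. Naïve and sham hosts were male, whereas the SCI hosts were pooled from both sexes, so that host sex and injury cannot be told apart. Live huCD45+ cells were sorted, after papain digestion and magnetic enrichment for the cord alone, so that mouse cells are carry-over and their number says nothing about their number in the animal.

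Naïve blood gave 61 host cells, against 1578 from sham blood, 839 from SCI blood and 93 from the cord. The libraries held 34161760, 36007208, 36487994 and 4206461 UMIs in that order, of which 89079, 4386575, 1914194 and 2692184 were mouse UMIs in host cells. The median host cell of naïve blood had 1170 mouse UMIs, that of sham blood 1875, that of SCI blood 1659 and that of the cord 26533. Naïve blood is thus thinly covered, and cord cells were far deeper than any blood cells. Levels are given as UMIs of the gene summed over the host cells of a library, per 1000000 mouse UMIs without globin, ribosomal protein and mitochondrial genes (CPM). Since each transcript is counted by its 3' end, a level is compared between libraries and not between genes. With 1 library per group there was no measure of spread between animals and no test; the 95% intervals are exact and cover counting error only. The libraries shared few barcodes (16 between naïve and sham, 16 between naïve and SCI blood, 5 between sham and SCI blood and 1 between SCI blood and cord), and none of the shared barcodes was a host cell in both.

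Neutrophil RNA was abundant in the host cells of blood. All 10 neutrophil markers were found in the 3 blood libraries, with a summed level of 103132 CPM for naïve, 135010 CPM for sham and 157284 CPM for SCI blood, against 708 CPM for the cord, where Ly6g was at 0. S100a9 was the most abundant of them in each library. The 4 platelet markers, led by Pf4 and all found in blood (in the cord 2 of 4, with Ppbp and Itga2b at 0), stood at 9128 CPM (naïve), 1029 CPM (sham), 2817 CPM (SCI blood) and 165 CPM (SCI cord). The 7 monocyte markers, all found in blood (in the cord 6 of 7, with Treml4 at 0) and led by Csf1r in each library, gave 1248, 1229 and 774 CPM in naïve, sham and SCI blood and 2549 CPM in the cord. The 8 macrophage markers summed to 343, 289 and 362 CPM in naïve, sham and SCI blood and to 30453 CPM in SCI cord, where all 8 were found and C1qa led with 28448 UMIs (naïve blood had 2 of 8, with C1qa, C1qb and C1qc at 0). The microglial marker Sall1 had 75 UMIs in the cord and 0 in each blood library. Naïve host cells thus held more platelet RNA than the other blood libraries, SCI blood less monocyte RNA than sham, and blood and cord compared different cell types. Without platelet-like cells, the log2 ratio of the sum of the 9 genes was 0.15 in place of 0.54 for sham against naïve blood and -0.41 in place of -0.10 for SCI against naïve blood. Of the defining lymphocyte markers, Ms4a1, Cd3e, Klrb1c and Eomes were at 0 in all 4 libraries. Others were found, with 7, 416, 148 and 0 UMIs of Cd3d in naïve, sham and SCI blood and cord, 0, 19, 4 and 10 of Cd79b and 0, 14, 12 and 0 of Nkg7.

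Leiden clustering without the listed interferon genes gave 8 clusters, named by their markers as neutrophil-like, platelet-like, monocyte-like and macrophage-like. Sham blood held 1121 neutrophil-like, 287 platelet-like and 170 monocyte-like cells. SCI blood held 539, 230 and 68 of these in the same order, and naïve blood 16, 37 and 8. Of the 93 cord cells, 88 were macrophage-like. The platelet-like cells also carried 148742 CPM of S100a8 and S100a9 in sham and 158478 CPM in SCI blood, so that neutrophil RNA was abundant in barcodes led by platelet genes.

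Among the effectors that act on RNA and protein, Isg15 (ENSMUSG00000035692, chr4:156199424-156200818 of GRCm38, minus strand) stood at 416 CPM in naïve (95% interval 288 to 581), 531 CPM in sham (509 to 554), 281 CPM in SCI blood (257 to 307) and 162 CPM in SCI cord (145 to 180). Sham was the highest and the cord the lowest, and the naïve interval overlapped the intervals of sham and SCI blood. Ifit1 (ENSMUSG00000034459, chr19:34640871-34650009, plus strand) stood at 281 CPM in naïve (178 to 422), 161 CPM in sham (149 to 174), 72.0 CPM in SCI blood (60.0 to 85.7) and 31.8 CPM in the cord (24.6 to 40.6). Its 4 levels fell in that order with no overlap of neighbouring intervals. The naïve level rested on 23 UMIs, however, of which 39.1% lay in 1 barcode. Ifit3 (ENSMUSG00000074896, chr19:34583531-34588731, plus strand) stood at 110 CPM in naïve (50.4 to 209), 139 CPM in sham (128 to 151), 44.8 CPM in SCI blood (35.5 to 55.8) and 115 CPM in the cord (101 to 131). SCI blood was lowest; naïve blood, with 9 UMIs, overlapped each of the others. A single barcode held 55.6% of the Ifit3 UMIs in naïve blood, 43.0% in SCI blood and 52.8% in the cord.

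Rsad2 (ENSMUSG00000020641, chr12:26442746-26456452, minus strand) stood at 184 CPM in naïve (103 to 303), 178 CPM in sham (165 to 192), 88.5 CPM in SCI blood (75.1 to 103) and 35.8 CPM in the cord (28.0 to 45.0). Naïve and sham did not differ beyond counting error, SCI blood lay below sham and its interval just met the naïve one, and the cord was lowest, with 50.7% of the cord UMIs in 1 barcode. Oasl2 (ENSMUSG00000029561, chr5:114896936-114912234, plus strand) stood at 367 CPM in naïve (248 to 524), 374 CPM in sham (355 to 394), 389 CPM in SCI blood (360 to 419) and 61.2 CPM in the cord (51.0 to 73.0). The 3 blood libraries overlapped and the cord was low. Irf7, the transcription factor of the group (ENSMUSG00000025498, chr7:141262706-141266481, minus strand), stood at 159 CPM in naïve (84.7 to 272), 238 CPM in sham (223 to 254), 129 CPM in SCI blood (113 to 147) and 124 CPM in the cord (109 to 140). Sham exceeded SCI blood and cord, which did not differ beyond counting error, and naïve blood overlapped all of them.

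Of the membrane proteins, Ifitm3 (ENSMUSG00000025492, chr7:141009586-141010770, minus strand) stood at 1860 CPM in naïve (1576 to 2180), 2555 CPM in sham (2506 to 2605), 2165 CPM in SCI blood (2097 to 2235) and 828 CPM in the cord (789 to 868). Sham was highest and the cord lowest, with naïve and SCI blood overlapping between them. Bst2 (ENSMUSG00000046718, chr8:71534255-71537456, minus strand) stood at 110 CPM in naïve (50.4 to 209), 58.9 CPM in sham (51.6 to 66.9), 46.5 CPM in SCI blood (37.0 to 57.7) and 692 CPM in the cord (656 to 729). It was the one gene with its highest level in the cord, and the blood libraries overlapped; naïve blood had 9 UMIs, 44.4% of them in 1 barcode. Ifi27l2a (ENSMUSG00000079017, chr12:103442167-103443680, minus strand) stood at 1150 CPM in naïve (929 to 1407), 2493 CPM in sham (2444 to 2543), 1113 CPM in SCI blood (1065 to 1164) and 1168 CPM in the cord (1121 to 1215). Sham stood above the other 3 libraries, which overlapped.

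Some assignments carry a limit of 3' counting. Ifit3 and Ifit3b, Ifi27l2a and Ifi27l2b, and Ifit1 and Ifit1bl1 are close relatives that lie near each other on their chromosomes, and UMIs may pass between them. Ifit1, Ifit1bl1, Ifit3 and Ifit3b all lie on chromosome 19, and Ifi27l2a and Ifi27l2b on chromosome 12.

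**Figure D1:**
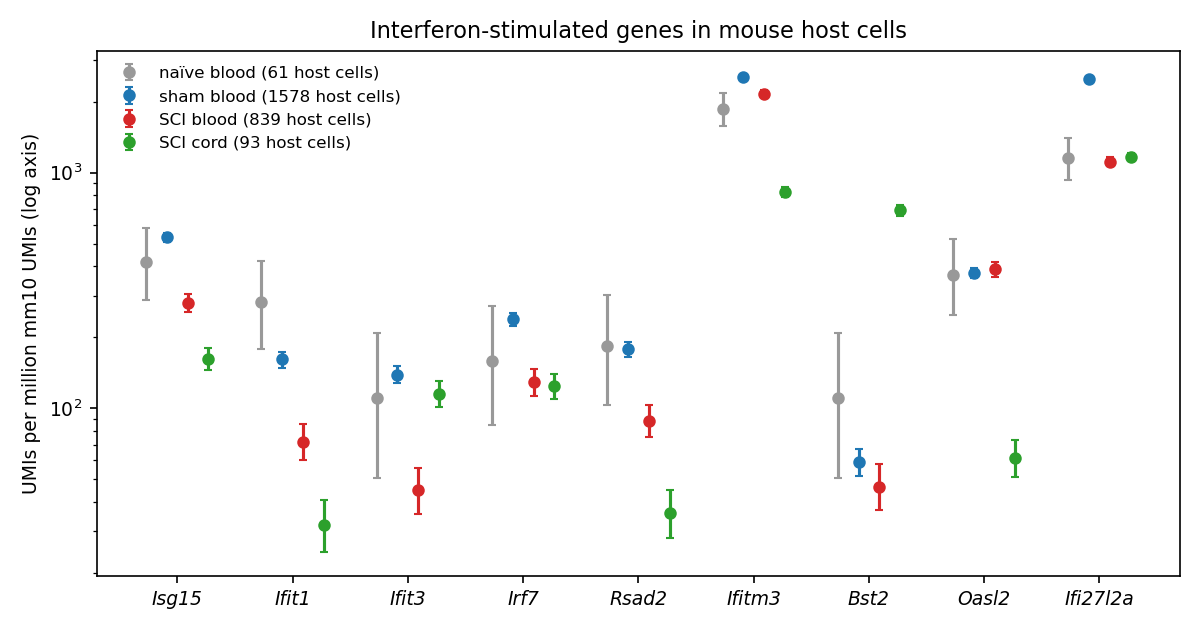
Level of each gene (CPM, log axis) in host cells of the 4 libraries; points are summed levels and bars exact 95% intervals of counting error. Sham lies above SCI blood for Isg15 (531 against 281 CPM) and Ifi27l2a (2493 against 1113 CPM), while the cord point of Bst2 (692 CPM) lies far above the blood points.

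The share of host cells with a UMI was compared after thinning each cell to 500 mouse UMIs, which 58 naïve, 1574 sham, 838 SCI blood and 93 cord cells reached. Isg15 was found in 10.3% of naïve, 17.0% of sham, 9.31% of SCI blood and 5.38% of cord cells, and without thinning in 18.0%, 40.8%, 24.2% and 41.9%. The high cord share thus came down to the lowest of the 4 once the mouse UMIs per cell were made equal. Ifi27l2a was found in 27.6% of naïve, 41.6% of sham, 24.2% of SCI blood and 28.0% of cord cells (unthinned 37.7%, 62.9%, 40.0% and 88.2%). Bst2 went the other way, with 0 of 58 naïve cells (interval up to 6.16%), 1.02% of sham, 0.716% of SCI blood and 12.9% of cord cells (unthinned 6.56%, 7.60%, 4.17% and 88.2%). For the remaining genes, SCI blood lay below sham in the shares of Ifit1 (5.02% against 2.63%), Ifit3 (3.94% against 0.835%), Irf7 (10.9% against 5.49%) and Rsad2 (6.99% against 2.74%). It was close to sham for Ifitm3 (48.4% against 47.1%) and Oasl2 (16.8% against 16.2%).

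Human cells cannot make mouse transcripts. Mouse UMIs in their barcodes may come from free RNA or from doublets of both species, among other sources, and the source was not tested. Isg15 was found in 0.655% of human barcodes in naïve, 1.23% in sham, 0.637% in SCI blood and 0 of 138 in the cord. The median human barcode had 3695, 5261, 4664 and 8621 UMIs in these libraries, of which 8, 14, 10 and 58 were mouse UMIs, and the median host barcode 1187, 1900, 1681 and 26590 UMIs. The highest such shares in the blood libraries were 3.18% for Ifitm3 and 2.82% for Ifi27l2a in sham, and in the cord 7.25% for Ifi27l2a. At the level seen per human barcode, such UMIs would account for 13.7% (naïve), 5.09% (sham) and 8.13% (SCI blood) of the host UMIs of Rsad2. For Isg15 the shares would be 3.02%, 2.89% and 2.67%. Doublets of mouse cells alone were not called. In 60, 1551, 829 and 92 of the host barcodes at least 90% of UMIs were mouse.

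SCI blood against sham blood asks what contusion adds to the surgery itself. At 7 days after a contusion, neutrophils and monocytes keep being released from marrow and spleen, and the tone of interferon signalling in circulating myeloid cells is one read-out of their state. Laminectomy alone opens muscle and bone and is itself an injury. The sham library therefore serves as the control for trauma and anaesthesia.

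In this comparison, 6 of the 9 genes were at least 1.5-fold lower in SCI blood and 0 at least 1.5-fold higher. Of 8588 mouse genes with at least 20 UMIs over both libraries, 16.2% were lower and 5.52% higher by the same measure. The median log2 ratio of the 9 genes was -0.92, beside -0.19 over all 8588, so that the lower genes were a far larger part of the 9 than of the background. With TMM factors all ratios of this comparison lie 0.19 higher, and 6 of 9 genes are again lower by the fold and 0 higher, against 9.01% and 8.81% of all genes. The genes past the fold were Ifit3 (log2 ratio -1.63, interval -1.99 to -1.29), Ifit1 (-1.16, -1.45 to -0.88), Ifi27l2a (-1.16, -1.23 to -1.09), Rsad2 (-1.01, -1.27 to -0.76), Isg15 (-0.92, -1.06 to -0.78) and Irf7 (-0.88, -1.10 to -0.67). Ifitm3 was lower by less than the fold (-0.24, -0.29 to -0.19), and the ratios of Bst2 (-0.33, -0.72 to 0.03) and Oasl2 (0.06, -0.08 to 0.19) did not leave 0 beyond counting error. Summed, the 9 genes stood at 6728 CPM in sham and 4329 CPM in SCI blood (log2 ratio -0.64, -0.67 to -0.60). Without the barcode that held the most Ifit3 UMIs in each library, the log2 ratio of Ifit3 was -2.34 in place of -1.63.

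The same difference was sought within cell classes, since the mix of cells differed. Neutrophil-like cells had 667 CPM of Isg15 in sham and 322 CPM in SCI blood, 197 and 79.7 CPM of Ifit3, and 2404 and 1025 CPM of Ifi27l2a. In these cells 6 of 9 genes were at least 1.5-fold lower in SCI blood and 0 higher, against 15.6% lower and 5.98% higher of 5670 genes with at least 20 UMIs there, and the median log2 ratio was -1.03 beside -0.13 over all genes. The class drew on different clusters, with 678 of the 1121 sham cells in 1 cluster and the 539 SCI cells spread mainly over 3 clusters of 229, 168 and 132 cells. The lower Isg15 and Ifit1 lay mainly in the cluster of 229 SCI cells (log2 ratios -1.24 and -2.15). In the cluster of 132 they were -0.23 (-0.56 to 0.08) and -0.21 (-0.89 to 0.39), and in that of 168 they were -0.01 (-0.77 to 0.87) and -0.73 (-1.80 to 0.50). The ratio of Rsad2 was 1.05 in the latter (-0.48 to 3.62, with 3 UMIs in sham). Ifi27l2a was lower in all 3, at -1.01 in the cluster of 229, -1.22 in that of 132 and -0.78 in that of 168. Platelet-like cells had 720 CPM of Isg15 in sham and 333 CPM in SCI blood. As these barcodes also held abundant neutrophil RNA, RNA of platelets and of neutrophils cannot be told apart in them. Of the 8 genes with at least 20 UMIs there, 6 were lower and 0 higher, against 17.3% lower and 9.39% higher of 4389 genes, and the median log2 ratio was -1.29 beside -0.13. Monocyte-like cells differed less. Their summed level was 8370 CPM in sham and 7000 CPM in SCI blood (log2 ratio -0.26, -0.32 to -0.19). Of 8 genes with at least 20 UMIs there, 3 were lower and 0 higher, against 10.5% lower and 8.88% higher of 7147 genes, and only the interval of Ifi27l2a lay wholly below 0 (-0.66, -0.79 to -0.54). Ifit1, Ifit3 and Rsad2 were sparse there, with 2, 2 and 4 UMIs in SCI blood. Monocyte-like cells carried much Ifitm3 (4849 CPM in sham and 4625 CPM in SCI blood) and Bst2 (183 and 178 CPM), where neutrophil-like cells had 11.0 and 11.2 CPM of Bst2. Whether the classes differed from each other in the change was not tested.

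**Figure D2:**
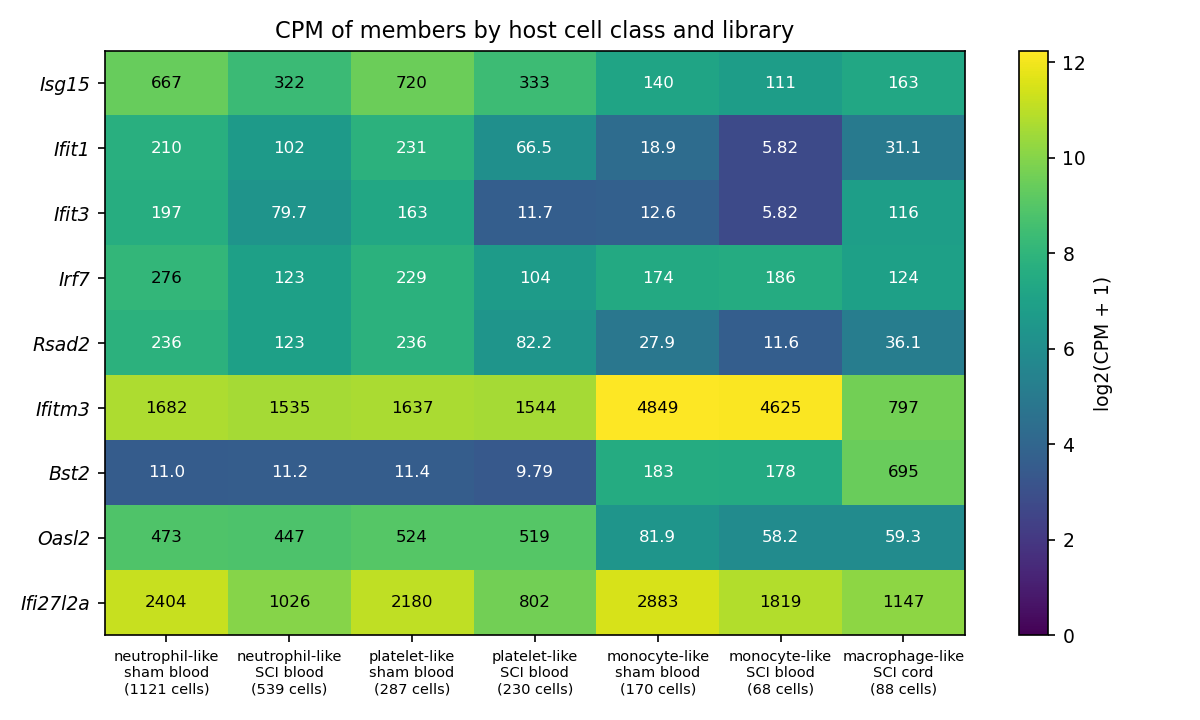
CPM of each gene in host cell classes of sham blood, SCI blood and SCI cord; colour gives log2 of CPM plus 1 and the printed number the CPM. Neutrophil-like and platelet-like cells of SCI blood show lower Isg15, Ifit1, Ifit3, Irf7, Rsad2 and Ifi27l2a than those of sham blood, and monocyte-like cells show the highest Ifitm3.

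In a small neutrophil-like cluster led by Acod1 and Cxcl2 (46 sham and 10 SCI blood cells), 1 SCI barcode held all 7 UMIs of Bst2, all 34 of Ifit3, all 24 of Rsad2, all 27 of Ifit1 and 33 of the 44 of Ifitm3, so that the libraries are not compared within it. At a finer resolution, where classes have other members than above, there was a neutrophil-like cluster led by Ifit1bl2 with 187 sham, 41 SCI blood, 0 naïve and 0 cord cells, which, like the cluster led by Acod1, was picked after its values had been seen. As some of its leading genes are themselves interferon-stimulated, its size is not compared between libraries. It had 1342 CPM of Isg15 in sham and 400 CPM in SCI blood, and 521 and 34.8 CPM of Ifit1, the latter from 2 UMIs. In the remaining neutrophil-like cells (1070 sham and 480 SCI blood), the 9 genes summed to 5636 CPM in sham and 3848 CPM in SCI blood (log2 ratio -0.55). Ifi27l2a (2295 and 968 CPM, log2 ratio -1.24), Irf7 (-0.88), Ifit3 (-0.75) and Isg15 (-0.72) were lower by the fold there, whereas Ifit1 (-0.45) and Rsad2 (-0.45) were lower within it. As the cluster was set apart by such genes, smaller differences in the rest are to be expected.

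Single cells were read at 500 UMIs. At least 3 of the 9 genes were found together in 13.8% of naïve cells (interval 6.15 to 25.4), 18.6% of sham cells (16.7 to 20.6), 8.71% of SCI blood cells (6.89 to 10.8) and 5.38% of cord cells (1.77 to 12.1). Sham cells thus more often carried several of the genes than SCI blood cells. In sham, Isg15 was found in 66.1% of the 62 cells with Ifit3, 58.2% of the 79 with Ifit1 and 52.7% of the 110 with Rsad2, against 17.0% of all cells. It was found in 33.9% of the 171 cells with Irf7, 32.1% of the 265 with Oasl2, 5 of the 16 with Bst2, 24.7% of the 655 with Ifi27l2a and 20.5% of the 762 with Ifitm3. Cells with Ifit3, Ifit1 or Rsad2 thus held Isg15 more often than all cells did. Their shares are not set against that of Ifitm3. As only 268 cells held Isg15 and 762 held Ifitm3, its share could not reach theirs. Read the other way, of the 268 cells with Isg15, 15.3% held Ifit3, 17.2% Ifit1, 21.6% Rsad2 and 58.2% Ifitm3. In SCI blood Isg15 was found in 5 of 7 cells with Ifit3, 11 of 22 with Ifit1, 12 of 23 with Rsad2 and 39 of 395 with Ifitm3, against 9.31% of all cells. These cells share their library and their depth.

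Sham against naïve blood asks what laminectomy and anaesthesia do alone. Sterile surgery mobilises neutrophils from marrow within hours, and by a week the acute phase has largely passed. The naïve host library is thin, with 34 or fewer UMIs for 7 of the 9 genes, so that differences are weakly bounded.

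Of the 9 genes, 1 was at least 1.5-fold higher in sham and 2 were lower, against 19.5% of 7982 genes higher and 28.9% lower, and the counts do not stand out from that background. Ifi27l2a was the higher gene (1150 CPM in naïve and 2493 CPM in sham, log2 ratio 1.11, interval 0.82 to 1.42). Ifit1 (-0.84, -1.40 to -0.14) and Bst2 (-0.98, -1.85 to 0.24) were the lower genes, but Bst2 stood at 0.50 after the 3 MAD filter. Thinned to 500 UMIs, Bst2 was found in 0 of 58 naïve cells. Its ratio of 0.27 there is set by the added count and gives no direction. The median log2 ratio was 0.26 beside -0.11 over all genes (with TMM factors each ratio lies 0.15 higher), and the sum rose from 4637 to 6728 CPM (0.54, 0.39 to 0.69). This sum was carried by Ifitm3 and Ifi27l2a, without which its log2 ratio was 0.04. With the barcode richest in each gene left out of each library, Ifit1 stood at -0.22 and Bst2 at -0.24, and 5 genes were higher and 0 lower. Only the 9 genes were trimmed in this way, so that this count is not set against a share of all genes.

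SCI against naïve blood sets injury and surgery together against no procedure, and shares its libraries with the 2 comparisons above. The naïve library limits it in the same way. In SCI blood 5 of 9 genes were at least 1.5-fold lower than in naïve blood and 0 were higher, against 32.6% of 5956 genes lower and 17.8% higher. The median log2 ratio was -0.59 beside -0.23. With TMM factors each ratio lies 0.35 higher and 4 of 9 genes are lower, against 19.2% of all genes. How the count stands to all genes depended on the setting. Without platelet-like cells 4 of 9 were lower against 47.2% of all genes, after the 3 MAD filter 3 of 8 with enough UMIs against 37.6%, and thinned to 500 UMIs 3 of 8 against 30.5%. Ifit1 had the lowest ratio (281 CPM in naïve and 72.0 CPM in SCI blood, -1.99, interval -2.61 to -1.26). It was followed by Ifit3 (-1.37, -2.29 to -0.12), Bst2 (-1.31, -2.24 to -0.06, but 0.48 after the 3 MAD filter), Rsad2 (-1.10, -1.82 to -0.18) and, just past the fold, Isg15 (-0.59, -1.07 to -0.02). Thinned to 500 UMIs, Bst2 was found in 0 of 58 naïve cells. Its ratio of 0.38 there is set by the added count and gives no direction. Ifi27l2a was level (-0.05, -0.35 to 0.27). The sum was close to 0 (-0.10, -0.25 to 0.05), but its value depended on the setting. It was -0.64 without Ifitm3 and Ifi27l2a, 0.24 with TMM factors and 0.29 without the barcode richest in each gene. The ratio of Ifit1 was -1.64 without the barcode richest in Ifit1 in each library, and that of Isg15 was -0.22 without the barcode richest in Isg15, which no longer passed the fold.

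SCI cord against SCI blood compares the host cells at the lesion with those in the circulation of 1 group of mice. The injured cord at a week is filled by microglia and by macrophages that came from blood monocytes, which clear myelin and debris. Neutrophils peak in the first days and have mostly left by then. Tissue and cell type therefore change together in this comparison and cannot be told apart, and only the cord was digested with papain. The comparison shares the SCI blood library with those above.

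Of the 9 genes, 2 were at least 1.5-fold higher in the cord and 5 lower, against 54.1% of 9107 genes higher and 21.9% lower, and the median log2 ratio was -0.80 beside 0.76 over all genes. Without neutrophil-like cells 2 of 9 were higher and 2 lower, against 42.3% and 24.1% of all genes, so that the larger part of lower genes was not seen there. TMM factors move each ratio by -0.65, which puts Ifi27l2a below 0 and 7 of 9 genes past the fold downwards and 2 upwards, against 34.1% and 38.4% of all genes. Thinning to 500 UMIs matched the mouse UMIs per cell of blood and cord, but not those left without globin, ribosomal protein and mitochondrial genes. At that depth 1 of 9 was higher and 5 lower, against 31.1% and 42.1% of the 2455 genes that keep enough UMIs (median -0.27). The lower genes thus stood nearer to that background. Bst2 was 14.8-fold higher (46.5 CPM in SCI blood and 692 CPM in the cord, log2 ratio 3.89, interval 3.57 to 4.23). Ifit3 was higher over summed UMIs (44.8 and 115 CPM, 1.36, 0.99 to 1.75), but its log2 ratio was -0.18 thinned to 500 UMIs. That value rests on few cells, as 1 of 93 cord and 7 of 838 SCI blood cells held Ifit3 there. Lower were Oasl2 (-2.66, -2.95 to -2.39), Ifitm3 (-1.39, -1.47 to -1.30), Rsad2 (-1.30, -1.73 to -0.90), Ifit1 (-1.17, -1.63 to -0.74) and Isg15 (-0.80, with its interval wholly below 0). Irf7 (-0.06, -0.32 to 0.20) and Ifi27l2a (0.07, -0.02 to 0.16) were level. Without the barcode richest in the gene in each library, Rsad2 stood at -2.07, Isg15 at -1.29 and Ifit3 at 1.08.

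The human cells of the same libraries carry the human counterparts, which are compared here within the human genes alone. ISG15, IFIT1, IFIT3, IRF7, RSAD2, IFITM3 and BST2 were read as orthologues. OASL was set beside Oasl2, and IFI27 and IFI27L2 beside Ifi27l2a, as the nearest family members. No matching of cell types was made between the species. Mouse and human values come from the same libraries and are not independent samples of a condition.

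In SCI against sham blood, ISG15 stood at 1525 CPM in sham and 810 CPM in SCI blood (log2 ratio -0.91, interval -0.94 to -0.89), close to the -0.92 of Isg15 in host cells. Of 10 human counterparts, 5 were at least 1.5-fold lower and 0 higher, against 6.86% of 14589 human genes lower and 5.72% higher, well above that background for lower genes. Their median log2 ratio was -0.70 beside 0.01 over all human genes, and their sum went from 2863 to 1616 CPM (-0.82, -0.84 to -0.81). All 7 orthologue pairs were below 0 in both species, where 70.3% of all host genes and 47.1% of all human genes were not above 0. In 4 pairs both were at least 1.5-fold lower, and in 6 pairs both intervals lay on the same side of 0. IFITM3 (-1.14) was past the fold where Ifitm3 (-0.24) was not, whereas IRF7 (-0.49) was not where Irf7 (-0.88) was.

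In sham against naïve blood, 3 of 10 human counterparts were at least 1.5-fold higher and 0 lower, against 6.67% of 14612 genes higher and 6.08% lower, with a median of 0.36 beside 0.06. The orthologue pairs were both above 0 in 4 of 7 cases, both below in 1 and opposite in 2, where 55.1% of host and 39.7% of human genes were not above 0. IFI27 was higher in sham (49.3 and 101 CPM, log2 ratio 1.04), as Ifi27l2a was in host cells (1.11), while IFI27L2 was close to level (0.14). In SCI against naïve blood, 3 of 10 were lower and 0 higher, against 8.74% of 14632 genes lower and 8.76% higher, with a median of -0.44 beside 0.07. Both genes were below 0 in 6 of 7 pairs and opposite in 1, where 61.7% of host and 40.1% of human genes were not above 0. In SCI cord against SCI blood, 3 of 10 were higher and 3 lower, against 22.4% of 13461 genes higher and 17.9% lower, close to that background, with a median of -0.14 beside -0.01. Both genes were below 0 in 4 of 7 pairs, both above in 1 and opposite in 2, where 32.3% of host and 50.8% of human genes were not above 0. BST2 was higher in the cord in human cells as well (237 and 385 CPM, log2 ratio 0.70).

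**Figure D3:**
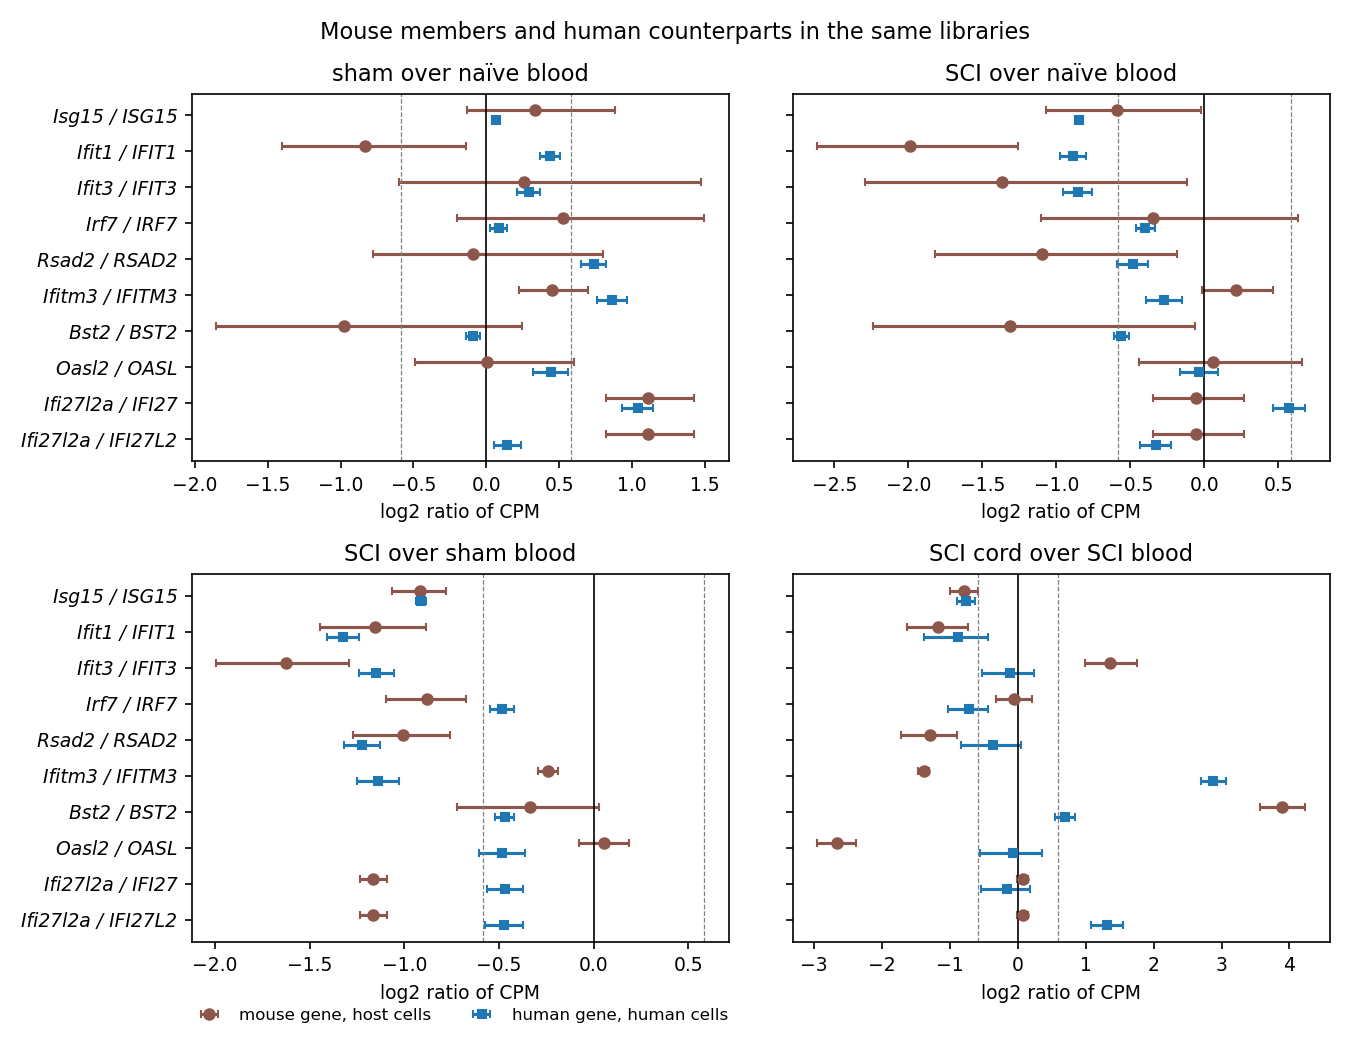
Log2 ratio of CPM for each mouse gene in host cells (circles) and its human counterpart in human cells (squares), in 4 comparisons; bars are exact 95% intervals of counting error and dashed lines mark 1.5-fold. In SCI against sham blood all human points and 8 of 9 mouse genes lie below 0, Oasl2 being at 0.06, whereas in cord against SCI blood Ifitm3 (-1.39) and IFITM3 (2.88) lie on opposite sides.

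A wider list of interferon-stimulated genes was read in the same way, with 65 of its 66 genes in the reference (Mx2 was not). In SCI against sham blood 62 had enough UMIs, of which 27 were at least 1.5-fold lower and 3 higher (over all genes 16.2% and 5.52%), 55 were below 0 and the median log2 ratio was -0.53, beside -0.19 over all genes. The lowest were Herc6 (-1.36), Ifit3b (-1.27), Slfn5 (-1.18), Ms4a4c (-1.07) and Tor3a (-1.06). The highest were Ccl12 (3.66, interval 2.08 to 6.24, from 3 UMIs in sham and 19 in SCI blood), Ifitm1 (1.87), Cxcl10 (1.67), Ifit1bl1 (0.35) and Ifitm2 (0.33). Ifitm1, a relative of Ifitm3 in the same gene cluster, stood at 1080.5 CPM in sham and 3949 CPM in SCI blood, against the trend of the list. Among the most abundant, Ly6e (-0.87) was lower and Slfn1 (-0.56) and Samhd1 (-0.32) were lower within the fold.

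In the other comparisons the wider list was less one-sided. In sham against naïve blood, 14 of 59 genes were higher and 6 lower (over all genes 19.5% and 28.9%), of which 11 stay higher when genes at 0 in naïve blood are set to their bound, and the median was 0.13 (0.06 with the 7 genes at 0 in naïve blood set to their bound of 3 counts). In SCI against naïve blood, 7 of 54 were higher (4 at the bound) and 20 lower, against 17.8% and 32.6% of all genes, with a median of -0.29 beside -0.23 over all genes. In cord against SCI blood, 24 of 62 were higher and 20 lower, against 54.1% and 21.9% of all genes, with a median of 0.10 beside 0.76. The shifts by TMM factors change the sign of both of these medians. Ifitm1 was at 0 UMIs in the cord against 6963 in SCI blood, at least 2687-fold lower. Slfn1 (-5.67), Slfn4 (-4.33), Ifitm2 (-4.14) and Oas3 (-2.96) were also low in the cord, and Ccl12 (5.59), Lgals3bp (4.27), Fcgr1 (3.79) and Phf11d (3.44) were high. Ifi44 had 24 UMIs in the cord and 0 in SCI blood, at least 6.91-fold higher.

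The pathway above these genes, with 28 genes, was read by role. Among the ligands, Ifna1, Ifna2, Ifna4, Ifna5 and Ifng had 0 UMIs in host cells of all 4 libraries, and Ifnb1 had 1 UMI, in the cord. The receptor genes Ifnar1 (-0.20) and Ifnar2 (-0.10) were within the fold in SCI against sham blood, as were Stat2 (-0.45) and Irf9 (-0.15). Of the inhibitors, Usp18, which blocks signalling at the receptor and is itself induced by interferon, was lower (-1.04), Socs1 was lower (-0.78, but with 0 inside its interval of -1.82 to 0.08) and Socs3, which responds to other cytokines as well, was higher (0.72). Of 6 sensors with enough UMIs, 3 were lower. They were Mavs (-1.37, interval -3.95 to 0.20, from 20 UMIs in sham and 3 in SCI blood), Ifih1 (-0.99) and Mb21d1 (-0.85, from 26 UMIs in sham and 6 in SCI blood). Mb21d1, like Mavs, had 0 inside its interval. In all, 5 of 20 pathway genes were lower and 1 higher (over all genes 16.2% and 5.52%), with a median of -0.36. In cord against SCI blood, 8 of 21 pathway genes were higher and 6 lower, where 54.1% and 21.9% of all genes were. The higher genes included 5 of 7 sensors, with Mavs at 3.13, Mb21d1 at 3.05, Tmem173 at 2.41, Tlr7 at 1.93 and Tlr3 at 54 against 0 UMIs. In sham against naïve blood 4 of 20 pathway genes were higher (3 at the bound) and 3 lower, and in SCI against naïve blood 3 of 17 were higher (2 at the bound) and 6 lower, mostly on few naïve UMIs. Over all genes 19.5% were higher and 28.9% lower in the former and 17.8% and 32.6% in the latter, so that these counts do not stand out.

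The 22 genes of a list of targets of interferon gamma, most of which act in antigen presentation, were less one-sided. In SCI against sham blood, 4 of 20 were at least 1.5-fold higher and 3 lower, against 5.52% and 16.2% of all genes, with a median of -0.10, which TMM factors move above 0. The class II genes H2-Eb1 (1.45), H2-Aa (0.96) and H2-Ab1 (0.75) were higher, and Irf8 (-0.72) and Tap2 (-0.64) lower. Gbp3 (0.59, interval -0.15 to 1.29) and Socs1 were also past the fold, with 0 inside their intervals. The 6 dendritic cell markers summed to 101 CPM in sham and 90.2 CPM in SCI blood. Itgax held 395 of their 405 UMIs in sham, but 92 of 159 in SCI blood. SCI blood also held 2 macrophage-like cells and sham 0. Which cells carried the class II genes was not tested. In sham against naïve blood 5 of 19 were higher and 3 lower (over all genes 19.5% and 28.9%), in SCI against naïve blood 4 of 17 were higher and 3 lower (17.8% and 32.6%), and in cord against SCI blood 6 of 19 were higher and 7 lower (54.1% and 21.9%). H2-Aa, H2-Ab1 and H2-Eb1 had 0 UMIs in naïve host cells, where 3 counts would be 36.7 CPM.

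Genes whose pattern is most like that of the 9 genes were sought over 17 combinations of library and cluster. Among 6472 genes, the highest Pearson correlations of log level with the sum of the 9 genes were those of Epsti1 (0.885), Rhou (0.818), Slfn5 (0.801), Parp14 (0.792) and Ifi47 (0.780). Plac8 (0.775), Sap30 (0.767), Psmb9 (0.758), Tor1aip1 (0.753) and Daxx (0.750) followed. Of these 10, 4 are on the wider list and 1 on the interferon gamma list. The points share libraries and depth. Of the 9 genes themselves, Irf7 (0.780) and Ifitm3 (0.681) followed the sum, of which each is a part, most closely and Oasl2 (0.04) least.

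The promoters were read because 6 of the 9 genes moved together from sham to SCI blood. RefSeq promoters of GRCm38.p6, from 250 bases before to 50 bases after the start, were available for 8 of the 9 genes; Ifi27l2a was missing. The core of the interferon-stimulated response element was searched as GAAA, any 2 bases and GAAA again, or on the other strand TTTC, any 2 bases and TTTC again, with overlapping matches counted. It was found in 6 of the 8 promoters (75%), in 5 of them at 2 or more places, against 3.44% of 32851 promoters of this length with 1 match or more and 0.225% with 2 or more. Of 53 genes of a wider list of interferon-stimulated genes that have a promoter there, 24 had it (45.3%). The promoters with a match are not those of the 6 genes past the fold in SCI against sham blood. Isg15, Ifit1, Ifit3 and Rsad2 were past the fold and had a match, whereas Ifitm3 and Bst2 had a match without passing it. Irf7, which passed the fold, and Oasl2, which did not, had no match in this window. The 2 matches of Ifitm3 lay past its start. Windows of 30 bases are printed to show how the matches lie in the other 5 promoters. They are 5' to 3' in the direction of the gene, with matches in capitals, at chr4:156200871-156200900 (minus strand) for Isg15, chr19:34640784-34640813 (plus) for Ifit1, chr19:34583363-34583392 (plus) for Ifit3, chr12:26456553-26456582 (minus) for Rsad2 and chr8:71537580-71537609 (minus) for Bst2. A match is a description of letters and not evidence of a bound site.
Isg15: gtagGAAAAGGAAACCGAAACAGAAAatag
Ifit1: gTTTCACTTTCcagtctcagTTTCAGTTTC
Ifit3: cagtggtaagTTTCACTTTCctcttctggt
Rsad2: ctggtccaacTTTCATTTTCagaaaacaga
Bst2: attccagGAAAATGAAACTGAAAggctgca
The Isg15 window holds 3 overlapping matches and the Bst2 window 2. Ifit1 has 2 separate matches, and Ifit3 has 1 in this window and 1 elsewhere in its promoter.

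The host cells are what passed a sort for human cells, and injury, host sex, pool and library cannot be told apart. Cell classes rest on RNA alone.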

How the data were processed

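Droplet-based 3' scRNAseq of sorted huCD45+ cells was read in 4 libraries. The authors deposited UMI counts per gene and barcode, made with Cell Ranger on hg38 and mm10; their submission gives no normalisation of these counts. The 9 genes, the gene lists and the cell rule were chosen with earlier results of these data known. Computation used scanpy 1.11.5, scipy 1.17.1, anndata 0.12.19, igraph 0.11.9, numpy 2.4.6, pandas 2.3.3 and matplotlib 3.10.9 under Python 3.11.15, and edgeR 4.0.16 in R 4.3.3 for TMM factors alone.

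Ratios were taken with 0.5 added to each count, for genes that reached 20 UMIs over both libraries; a fold of 1.5 was called. Intervals are exact Poisson, exact binomial for shares (Clopper-Pearson) and conditional binomial for ratios. Human cells passed a 3 MAD filter on depth, genes, mitochondrial share and ribosomal protein share. Host cells were clustered on 1500 variable genes (20 components, 15 neighbours, Leiden resolution 0.5), without the listed interferon genes and globin, ribosomal, mitochondrial and sex-linked genes; the naming rule was adjusted after the clusters had been seen. Classes were compared with at least 10 cells in both libraries, and genes counted there with at least 20 UMIs over both. The correlations used genes with at least 100 UMIs and the log of CPM plus 10. Calculations were tested on simulated data.

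Genes named are the 9 genes, the pathway and, of the wider and interferon gamma lists per comparison, the 5 highest, the 5 lowest and the 5 most abundant. The cluster led by Ifit1bl2 and barcodes that held a large share of a gene were described after their values had been seen. Alternatives changed the species and globin limits, scaling, thinning, filters, classes, added count, fold and resolution. Chosen after seeing the data were leaving out the barcode with the most UMIs, subtracting the human barcode level, leaving out platelet-like cells and summing without Ifitm3 and Ifi27l2a. Some genes of the pathway and marker lists are not reported here.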

Additional observations from a re-analysis of the deposited data

Results flagged for a closer look

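Ifit1 and IFIT1 went opposite ways in sham against naïve blood. The log2 ratio was -0.84 in host cells (281 CPM in naïve and 161 CPM in sham) and 0.44 in human cells (130 and 176 CPM), and neither counting interval held 0. The naïve host value rests on 23 UMIs, and without the barcode richest in Ifit1 the host ratio was -0.22. The difference between the species was not tested.

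Ifitm3 and IFITM3 went opposite ways in SCI cord against SCI blood. The log2 ratio was -1.39 in host cells (2165 CPM in SCI blood and 828 CPM in the cord) and 2.88 in human cells (43.9 and 323 CPM). Host cells were mostly neutrophil-like in blood and macrophage-like in the cord, and the human value for the cord rests on 118 cells. The paper lists neutrophils and basophils among the more prominent human cell types of the cord. Human cell types were not matched between cord and blood here. The difference was not tested.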

How the results depend on the processing

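No paired analysis was possible because there was 1 library per group. For SCI against sham blood, the sum of the 9 genes (log2 ratio -0.64) was below 0 under all 17 alternatives. It was -0.45 with TMM factors, -0.69 thinned to 500 UMIs, -0.73 thinned to 250 UMIs, -0.71 after the 3 MAD filter, -0.71 in neutrophil-like cells only, -0.59 without neutrophil-like cells, -0.68 without the barcode with the most UMIs of each gene, -0.57 without platelet-like cells and -0.68 without Ifitm3 and Ifi27l2a. Isg15, Ifit1, Ifit3, Irf7, Rsad2 and Ifi27l2a were each below 0 under all 16 alternatives, though Irf7 reached -0.53, which is within the fold. Without neutrophil-like cells 5 genes were lower by the fold, against 20.1% of all genes. Oasl2 ranged from -0.13 to 0.31 and Bst2 from -0.49 to 0.11. A fold of 2 left 4 genes lower in place of 6, and no share of all genes is given for that fold.

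For sham against naïve blood, the sum (0.54) was 0.77 with at least 90% mouse UMIs, 0.69 with TMM factors, 0.73 thinned to 500 UMIs, 0.69 after the 3 MAD filter, 0.35 in neutrophil-like cells only, 0.96 without the richest barcode, 0.15 without platelet-like cells and 0.04 without Ifitm3 and Ifi27l2a. The count of higher genes (1 of 9, against 19.5% of all genes) was 2 with at least 90% mouse UMIs (21.1%) and 3 with TMM factors (24.8%). Thinned, it was 3 of 8 at 500 UMIs (26.6%) and 3 of 8 at 250 UMIs (28.7%). It was 2 after the 3 MAD filter (16.2%), 2 in neutrophil-like cells only (9.76%), 2 without them (34.2%) and 2 without platelet-like cells (12.3%). Without the richest barcode it was 5, but only the 9 genes were trimmed there, so that no share of all genes stands beside it. The count of lower genes (2 of 9, against 28.9%) was 1 with at least 90% mouse UMIs (27.8%). Thinned, it was 0 of 8 at 500 UMIs (33.2%) and 3 of 8 at 250 UMIs (34%). It was 1 after the 3 MAD filter (37.8%), 3 in neutrophil-like cells only (56.8%) and 1 without platelet-like cells (49.7%). It was 0 without the richest barcode of the 9 genes and 0 at a fold of 2, for which no share of all genes is given. Bst2 (-0.98) changed sign to 0.50 after the 3 MAD filter, and the cause was not tested. Its value of 0.27 thinned to 500 UMIs is set by the added count, as 0 of 58 naïve cells held it, and gives no direction.

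For SCI against naïve blood, the sum (-0.10) was 0.12 with at least 90% mouse UMIs, 0.24 with TMM factors, -0.26 thinned to 250 UMIs, -0.36 in neutrophil-like cells only, 0.09 without them, 0.29 without the richest barcode, -0.41 without platelet-like cells and -0.64 without Ifitm3 and Ifi27l2a. The count of lower genes (5 of 9) was 3 of 8 thinned to 500 UMIs, 2 of 6 thinned to 250 UMIs, 3 of 8 after the 3 MAD filter and 3 of 8 without neutrophil-like cells. In that order 30.5%, 30.7%, 37.6% and 22.7% of all genes were lower. The count of higher genes (0) was 1 without the richest barcode. Only the 9 genes were trimmed there, so that no share of all genes stands beside it. Bst2 (-1.31) changed sign to 0.48 after the 3 MAD filter, and the cause was not tested. Thinned to 500 UMIs it was found in 0 of 58 naïve and 6 of 838 SCI blood cells. Its value of 0.38 there is set by the added count and gives no direction.

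For SCI cord against SCI blood, the sum (-0.43) was -0.71 scaled to all mouse genes, -1.08 with TMM factors, -0.57 thinned to 500 UMIs, -0.15 thinned to 250 UMIs, -0.22 after the 3 MAD filter, -0.61 without neutrophil-like cells, -0.56 without the richest barcode, -0.54 without platelet-like cells and 0.22 without Ifitm3 and Ifi27l2a. The count of higher genes (2) was 1 thinned to 500 UMIs, where 31.1% of all genes were higher, and that of lower genes (5) was 2 without neutrophil-like cells, where 24.1% of all genes were lower. Ifit3 (1.36) changed sign to -0.18 thinned to 500 UMIs, where 1 of 93 cord and 7 of 838 SCI blood cells held it. The cause was not tested. Neutrophil-like cells alone were not compared here, as the cord held 4.

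The share of host cells with a UMI of any of the 9 genes (58.6% in naïve, 76.0% in sham, 68.3% in SCI blood, 50.5% in cord) was 77%, 95.9%, 92.3% and 95.7% without thinning and, thinned to 250 UMIs, 60.0% in sham, 48.2% in SCI blood and 33.3% in cord. Clusters numbered 13 in place of 8 at a resolution of 1. Without immunoglobulin genes in the total, the human sum was 0.07 in place of 0.16 for sham against naïve blood and -0.75 in place of -0.66 for SCI against naïve blood.

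TMM factors moved the median over all genes by 0.15 (sham against naïve), 0.35 (SCI against naïve), 0.19 (SCI against sham) and -0.65 (cord against SCI blood). The share of called genes that were higher went from 40.3% to 50.7%, from 35.2% to 59.2%, from 25.5% to 49.4% and from 71.2% to 53.0% in that order. With the mean of the CPM of each barcode in place of summed levels it was 63.4%, 51.7%, 26.3% and 74.3%. Naïve values are limited by 61 cells and cord values by 93.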

Other observations

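The mouse barcodes rich in globin, which the rule leaves out, carried Isg15 and Rsad2 at high levels. Naïve blood had 1350 of them, sham blood 412, SCI blood 391 and the cord 0. In these barcodes Isg15 stood at 9665 CPM (naïve), 8805 CPM (sham) and 5848 CPM (SCI blood), without globin genes in the total, and Rsad2 at 12021, 8122 and 7889 CPM. Ifit3 had 0, 4 and 0 UMIs there and Oasl2 1, 10 and 2. The ratio of Rsad2 to Isg15 UMIs was 1.24 (naïve), 0.922 (sham) and 1.35 (SCI blood) in the globin-rich barcodes. In host cells it was 0.441, 0.335 and 0.315, and in human barcodes 2, 0.591 and 0.960.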
